A study of Rattus norvegicus with 20 samples.

Results

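Flavin-containing monooxygenases (FMOs) are membrane enzymes of the endoplasmic reticulum that hold FAD, take electrons from NADPH and pass an oxygen atom to nitrogen or sulphur in drugs, dietary amines and small metabolites. FMO1 also turns hypotaurine into taurine, FMO2 is best known as the form of the lung, FMO4 is a little-studied form of low abundance, and FMO5 is an enzyme of liver and gut that oxidises ketones to esters. Fmo1, Fmo2, Fmo4 and Fmo5 are described here in rat mesenteric artery. They were taken as the probes whose gene name in the scanner files equals one of these symbols, which gave 5 probes for 4 genes among 30367 probes for 26243 gene names. The family was selected on its measured levels and group differences in these same arrays, and which of them counted most is not recorded. The differences and adjusted p-values below are therefore given as the genes' place in a fit over all genes, not as independent evidence. Other genes of the family are not reported here.

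The study set out 5 groups of 4 rats, and total RNA of the whole mesenteric artery of each rat was hybridised to 1 one-colour Agilent 60-mer array. WKY/Izm rats, a normotensive strain, made up 3 groups. Some had no operation, some carried a clip on a renal artery with the other kidney in place (2-kidney 1-clip, 2K1C), and some carried the clip with a single kidney (1-kidney 1-clip, 1K1C). SHR/Izm rats are spontaneously hypertensive, SHRSP/Izm rats are their stroke-prone relatives, and both were untreated. The label gives an age of 6 weeks for all groups and 3 weeks for the operation, without settling whether 6 weeks is the age at operation or at sampling. Whole artery holds smooth muscle, endothelium, adventitia, nerve and any adherent fat or other tissue, so fewer cells of a type and less RNA per cell cannot be told apart. Between 66.5% and 71.7% of the spots of an array were well above background, and arrays of 1 group correlated at 0.934 to 0.995. The 5 smooth muscle markers (Myh11, Acta2, Cnn1, Tagln, Smtn) had mean log2 levels of 2.93 or more on all arrays except WKY 1K1C replicate 2, where it was 1.10. A level here is the log2 signal relative to the array's 75th percentile, so 0 is the brightness of a probe at that percentile, and levels of different probes are not compared. The 1K1C and untreated WKY arrays shared slide 2, in rows 1 and 2, and the SHR and SHRSP arrays shared slide 3, in rows 1 and 2. The 2K1C arrays were alone on slide 1. Slide and group cannot be told apart in the other comparisons, nor row and group in those within a slide.

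The probe sequences show what each measurement rests on. All are read from the array's own annotation, 5′ to 3′, and the design of the array places them on rn4. Fmo1, Fmo2 and Fmo4 lie near each other on chromosome 13, all on the minus strand. The Fmo1 probe is placed at chr13:78504208-78504267. The Fmo4 probe is placed at chr13:78476878-78477668, a stretch of 791 bases for 60 bases of probe, so it crosses at least 1 intron and reads spliced RNA. Of the Fmo2 probes, A_64_P091088 is placed at chr13:78548022-78548081 and starts at base 1291 of the transcript named in the annotation. The other Fmo2 probe, A_44_P486312, is placed at chr13:78546402-78546461, nearer the 3′ end of the same transcript at base 1870. It was the brighter and stands for the gene in the test. The Fmo5 probe lies on chromosome 2 at chr2:192489734-192489793, plus strand, and is repeated in 10 spots.
Fmo1 probe A_44_P283508: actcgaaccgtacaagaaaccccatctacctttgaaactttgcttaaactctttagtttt
Fmo2 probe A_64_P091088: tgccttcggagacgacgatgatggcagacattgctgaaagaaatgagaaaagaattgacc
Fmo4 probe A_44_P170368: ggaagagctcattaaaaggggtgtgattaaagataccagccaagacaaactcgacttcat
The longest run of letters shared by any 2 of the 5 probes was 8 bases, so no pair shares a long stretch.

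Of the 4 genes, 3 (Fmo1, Fmo2 and Fmo4) had in some group all 4 arrays well above background, and they were among the 16424 genes tested. Fmo5 was not. No tested member passed an adjusted p of 0.05 (limma over all 20 arrays, Benjamini-Hochberg over all tested genes) in any of the 6 comparisons. The background share of tested genes that passed was 1.84% for SHR against untreated WKY, 2.39% for SHRSP against untreated WKY, and 0.359% for SHRSP against SHR. For 2K1C against untreated WKY it was 0.0122%, and for 1K1C against either of the other WKY groups 0%. At an unadjusted p under 0.05, limma gave 14% of genes for SHR against untreated WKY, 16.7% for SHRSP against untreated WKY, 9.09% for 1K1C against untreated WKY and 21.5% for 1K1C against 2K1C. Members under it were Fmo2 (0.00143) and Fmo1 (0.0378) in SHR, Fmo2 (0.0481) in SHRSP, Fmo1 (0.0205) in 1K1C against untreated WKY and Fmo1 (0.00095) in 1K1C against 2K1C. The groups of a member did not overlap in 3 cases, Fmo2 in SHR and in SHRSP against untreated WKY and Fmo1 in 1K1C against 2K1C. No member's groups were apart between 2K1C and untreated WKY, 1K1C and untreated WKY, or SHRSP and SHR, where 7.76%, 3.81% and 3.5% of all genes had groups apart.

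Fmo2 had higher mean levels in the hypertensive strains than in untreated WKY, without passing the test. The untreated WKY arrays read log2 levels of -0.77, -0.73, -1.85 and -0.54. The SHR arrays read -0.36, 0.26, 0.55 and 0.39, and the SHRSP arrays -0.39, -0.50, -0.52 and 0.19. Every SHR and every SHRSP array lay above every untreated WKY array, although the margin between the nearest SHRSP and WKY arrays was narrow. Over all genes, 6.14% and 11.3% had groups that did not overlap in these comparisons. The SHR mean was 1.19 ± 0.31 log2 units (SE, n = 4 against 4) above untreated WKY, a ratio of 2.27, with a 95% interval of 0.52 to 1.85. Its adjusted p was 0.0626 (limma), just above the threshold of 0.05. The SHRSP mean was 0.67 ± 0.31 above untreated WKY, with an adjusted p of 0.297.

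The call on Fmo2 between SHR and untreated WKY changed with single arrays. Without SHR replicate 1, the lowest SHR array, the difference was 1.38 with an adjusted p of 0.0302, and without WKY untreated replicate 4, the highest of its group, it was 1.33 with an adjusted p of 0.0335 (limma). The share of all genes called rose in these fits too, from 1.84% to 3.34% and 4.07%. Scaling each array to its median gave 1.29 with an adjusted p of 0.0356, and weighting arrays by their estimated spread gave 1.40 with 0.000113, a setting that called 46.6% of all genes. Over the alternatives tried the adjusted p ran from 0.000113 to 0.231. With 1 array left out the difference ran from 0.89 to 1.38 for SHR and from 0.37 to 0.81 for SHRSP. Both were lowest without WKY untreated replicate 3, the lowest array of its group at -1.85. The second Fmo2 probe read -1.47, -1.37, -2.69 and -1.33 on the untreated WKY arrays and -1.45, -0.72, -0.43 and 0.37 on the SHR arrays. On that probe the groups overlapped by SHR replicate 1, and the difference was 1.16 ± 0.35 (SE), with an adjusted p of 0.111 over all kept probes. In SHRSP that probe read -1.59, -1.62, -1.17 and -0.92, which overlapped untreated WKY, and its difference was 0.39 ± 0.35 with an adjusted p of 0.614 against 0.67 on the first probe. The probes therefore gave like differences for SHR, and for SHRSP only the first kept the groups apart. Across the 20 arrays they correlated at r = 0.891, and at 0.838 once group means were removed, which is a description of 2 probes on the same arrays.

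In the operated WKY rats Fmo2 lay within the range of untreated WKY on the first probe. The 2K1C arrays read -0.66, -0.73, -0.86 and -1.59, and the 1K1C arrays -1.26, -1.84, -1.21 and -0.55. All 8 values lay between the lowest and the highest untreated WKY array. The difference from untreated WKY was 0.015 ± 0.31 in 2K1C, with a 95% interval of -0.65 to 0.68, and its sign turned under other settings. In 1K1C it was -0.24 ± 0.31, with an interval of -0.90 to 0.42. By mean level the order was SHR, SHRSP, 2K1C, untreated WKY and 1K1C, in which SHR and SHRSP overlapped and the 3 WKY groups overlapped. SHRSP was -0.52 ± 0.31 from SHR, on a shared slide, with an adjusted p of 1 (limma). On the second probe 2K1C replicate 2 read -0.98, above the highest untreated WKY array at -1.33. The differences from untreated WKY on that probe were 0.29 ± 0.35 in 2K1C and -0.20 ± 0.35 in 1K1C. SHRSP was -0.77 ± 0.35 from SHR on it, and none of these was called.

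**Figure D1:**
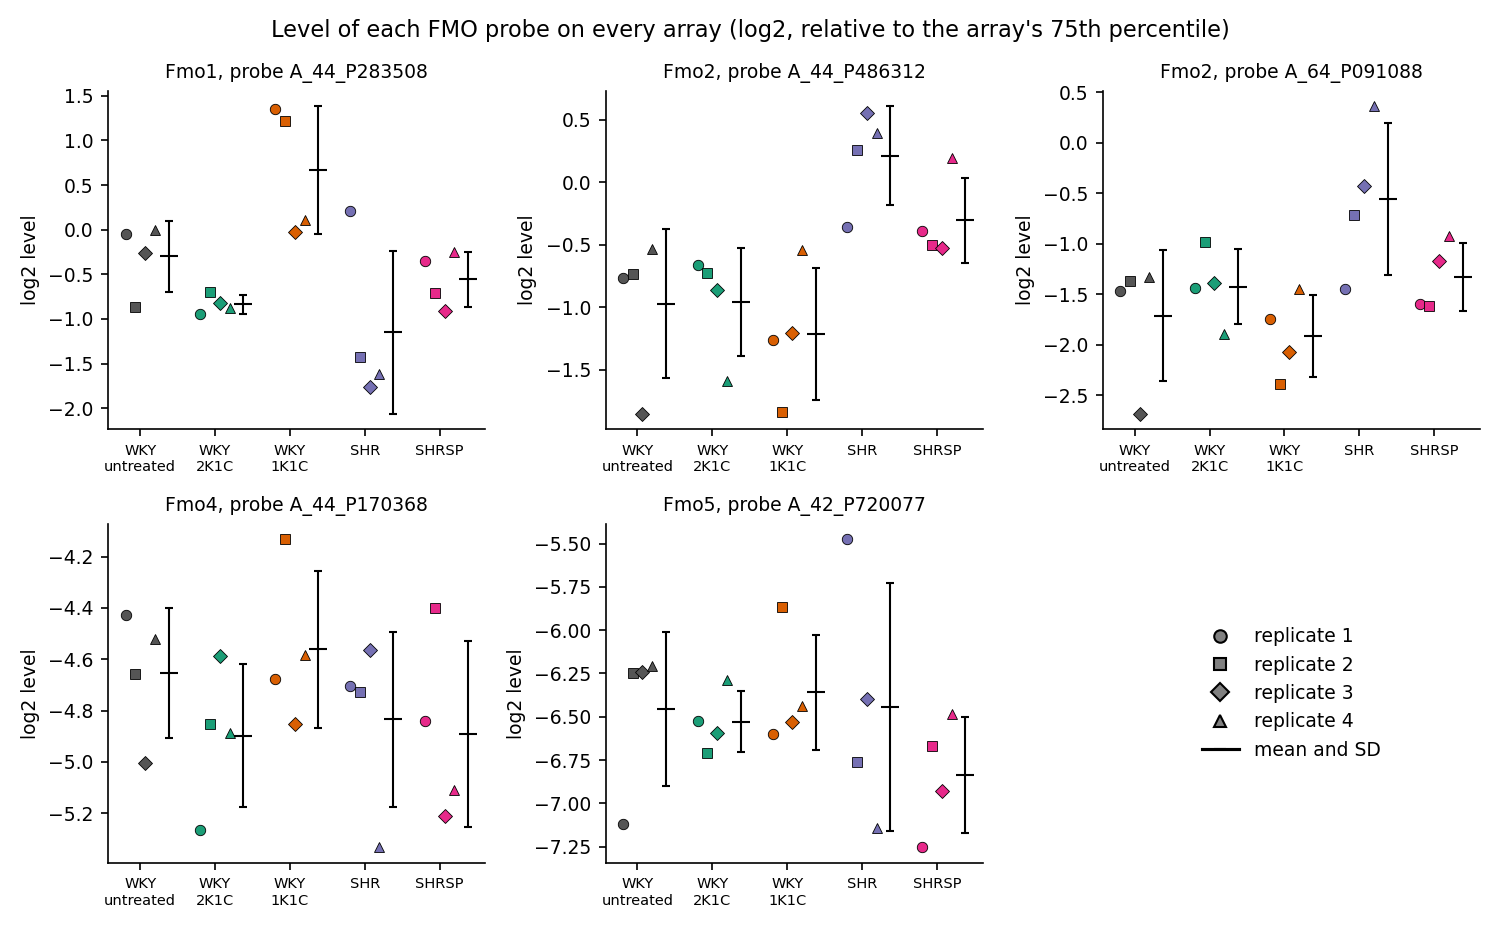
Log2 level (relative to the array's 75th percentile) of each of the 5 FMO probes on every array, 1 panel per probe, each panel with its own y axis. Symbols mark replicates and colours groups, and the bar beside each group is its mean with SD (n = 4). Fmo2 sits higher in SHR, Fmo1 highest on WKY 1K1C replicates 1 and 2 and lowest on SHR replicates 2 to 4, and Fmo4 and Fmo5 show overlapping groups.

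Fmo1 had the widest spread of the tested members between the groups, and in SHR also within the group. The untreated WKY arrays read -0.054, -0.87, -0.27 and -0.00061. The 1K1C arrays read 1.35, 1.22, -0.021 and 0.11, and the 2K1C arrays -0.95, -0.70, -0.82 and -0.88. The 1K1C arrays fell into a high pair and a pair near the top of untreated WKY, whereas the 2K1C arrays lay close together and below every 1K1C array. Over all genes, 9.75% had groups that did not overlap between 1K1C and 2K1C. The 1K1C mean was 1.50 ± 0.38 (SE) above 2K1C, a ratio of 2.83, with a 95% interval of 0.70 to 2.30 and an adjusted p of 0.0731 (limma). Without WKY 1K1C replicate 4 the difference was 1.69 with an adjusted p of 0.0197, in a fit where 11.5% of all genes were called against 0% with that array, and over the alternatives tried the adjusted p ran from 0.0197 to 0.3.

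Against untreated WKY, the operated groups lay on opposite sides for Fmo1. The 1K1C mean was 0.96 ± 0.38 higher on the shared slide, with a 95% interval of 0.17 to 1.76 and an adjusted p of 0.429. The 2K1C mean was -0.54 ± 0.38 from untreated WKY, with an interval of -1.33 to 0.26 and an adjusted p of 0.399 (limma for both). Both groups overlapped untreated WKY. These comparisons share the untreated arrays.

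In SHR, Fmo1 was low on 3 of 4 arrays. The SHR arrays read 0.21, -1.42, -1.76 and -1.62, so replicate 1 was above every untreated WKY array and the other three below every array of the other groups. The difference from untreated WKY was -0.85 ± 0.38 (SE), with an interval of -1.65 to -0.054 and an adjusted p of 0.321. Without SHR replicate 1, where 3.34% of all genes were called, it was -1.30 with an adjusted p of 0.0288, and over the alternatives tried the adjusted p ran from 0.00472, with array weights, to 0.652 (limma). The SHRSP arrays read -0.35, -0.70, -0.91 and -0.25, all inside the range of untreated WKY apart from replicate 3. SHRSP was 0.60 ± 0.38 above SHR on the shared slide, with an adjusted p of 1. By mean level the order was 1K1C, untreated WKY, SHRSP, 2K1C and SHR, and each neighbouring pair in it overlapped.

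Fmo4 was low on its own probe's scale in all groups. Its levels ran from -5.33 to -4.13, and SHR replicate 4 and SHRSP replicate 3 were not well above background. The group means were -4.65 in untreated WKY, -4.90 in 2K1C, -4.56 in 1K1C, -4.83 in SHR and -4.89 in SHRSP, with SDs of 0.25 to 0.36. All groups overlapped, and the largest of the 6 differences was 0.34 ± 0.22 (SE) between 1K1C and 2K1C, with a 95% interval of -0.12 to 0.79. Against untreated WKY the intervals reached down to -0.70, for 2K1C, and up to 0.55, for 1K1C. Several of these small differences turned sign under other settings.

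Fmo5 was not well above background on 19 of 20 arrays. The exception was SHR replicate 1, where 70% of the 10 spots were, at a level of -5.48. The other SHR arrays read -6.76, -6.40 and -7.14, and the arrays of the other groups ran from -7.25 to -5.87. At this brightness the values give no order of the groups.

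**Figure D2:**
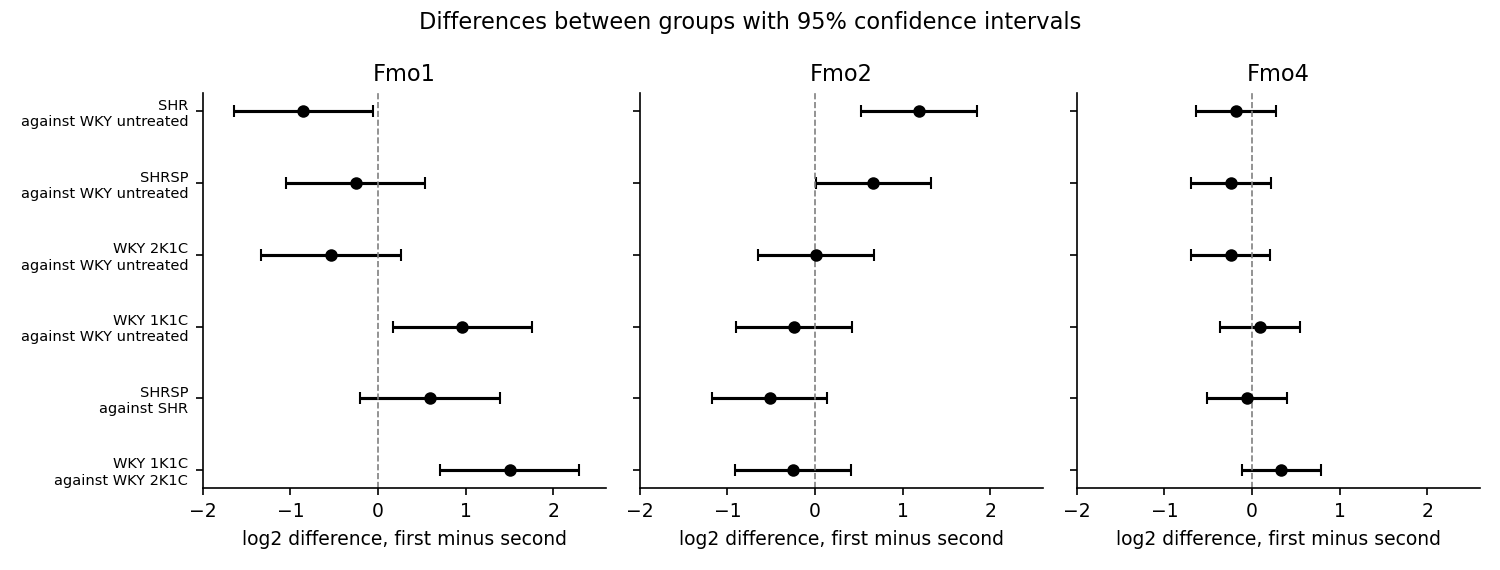
Log2 differences (first group minus second) of Fmo1, Fmo2 and Fmo4 in the 6 comparisons, as points with 95% confidence intervals from the fit over 20 arrays, before any adjustment for the number of genes. Of the intervals, 5 exclude 0: Fmo2 in SHR (0.52 to 1.85) and in SHRSP (0.0063 to 1.33) against untreated WKY, and Fmo1 in SHR (-1.65 to -0.054) and in 1K1C (0.17 to 1.76) against untreated WKY and in 1K1C against 2K1C (0.70 to 2.30). Those of Fmo4 all include it.

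Markers of other cell types moved with Fmo1 and Fmo2 from array to array. The mean log2 level of 6 white adipocyte markers (Adipoq, Plin1, Lep, Cidec, Fabp4, Lipe), all tested, ran from 1.41 to 2.77 in 1K1C and from 0.24 to 1.22 in 2K1C, with no overlap. All 6 were higher in 1K1C than in 2K1C, by a median of 1.31, and none was called. In untreated WKY the mean ran from 0.73 to 2.36, and in SHRSP from 0.62 to 1.51. The SHR arrays read 2.55, 1.08, 0.95 and 0.79, so the array with the high Fmo1 was also the one with the high adipocyte markers. The same array, SHR replicate 1, had the lowest smooth muscle mean of its group, 2.93 against 4.66 or more, and a mesothelium mean (3 tested markers of 5) of 1.20 against -3.81 or less.

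Across the 20 arrays, which share slides and groups, Fmo1 correlated with the adipocyte mean at r = 0.634 and with the smooth muscle mean at r = -0.778. With group means removed these were 0.493 and -0.709. For Fmo2 the adipocyte value was -0.467, or -0.633 with group means removed, and the value for 4 Schwann cell markers was 0.578, or 0.825. By ranks (Spearman) the Schwann cell value was 0.338. Other lists came near these values with group means removed. Fmo1 had 0.485 with mesothelium and 0.4 with macrophage markers, and Fmo2 had -0.592 with mesothelium and 0.487 with smooth muscle markers. Brown adipocyte markers gave 0.036 for Fmo1 and 0.046 for Fmo2. Fmo4 correlated with the smooth muscle mean at r = -0.627, or -0.525 with group means removed. Its values were 0.416, or 0.552, with pancreas markers and 0.481, or 0.303, with white adipocyte markers. The relation of Fmo1 to the white adipocyte mean had exceptions: WKY untreated replicate 2 had an adipocyte mean of 2.36 and the lowest Fmo1 of its group, -0.87. The mean of the fibroblast markers (6 of 6 tested) ran from 3.01 to 3.46 in SHR and from 2.53 to 2.97 in untreated WKY, without overlap. Of these markers, 4 were higher and 2 lower in SHR, where Fmo2 was higher. In SHRSP, where Fmo2 was also higher, the fibroblast mean ran from 2.89 to 3.57 and overlapped untreated WKY. There 3 markers were higher and 3 lower. In 1K1C the fibroblast mean was above untreated WKY, at 3.03 to 3.49, and Fmo2 was not higher. Of 5 neuron markers 3 were tested, and Gap43 and Prph were called lower in both SHR and SHRSP than in untreated WKY. Their mean with Th ran from -1.85 to -1.58 in SHR, from -1.78 to -1.55 in SHRSP and from -1.26 to 4.46 in untreated WKY, so neither strain overlapped untreated WKY. Over the 20 arrays this mean correlated with Fmo2 at r = -0.24, and at 0.093 with group means removed. The mean of 5 pancreas markers ran from -5.34 on WKY untreated replicate 3 to 2.35 on SHRSP replicate 2. All 5 were higher in SHR than in untreated WKY, and none was called. The mean of 3 tested lymphocyte markers was 3.11 on WKY 2K1C replicate 4 and 1.37 on SHRSP replicate 4. On those arrays Fmo2 read -1.59 and 0.19. On every other array the lymphocyte mean was -1.26 or less. The part of fat, nerve, mesothelium, fibroblasts, smooth muscle, pancreas and lymphocytes in the FMO differences was not tested.

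Fmo1 and Fmo2 ran in opposite directions over the arrays, with r = -0.604, or -0.387 with group means removed. SHR replicates 2 to 4 paired the 3 lowest Fmo1 levels with the 3 highest Fmo2 levels, and WKY 1K1C replicates 1 and 2 paired the highest Fmo1 levels with low Fmo2. Fmo4 correlated with Fmo1 at r = 0.445 and with Fmo2 at -0.25.

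**Figure D3:**
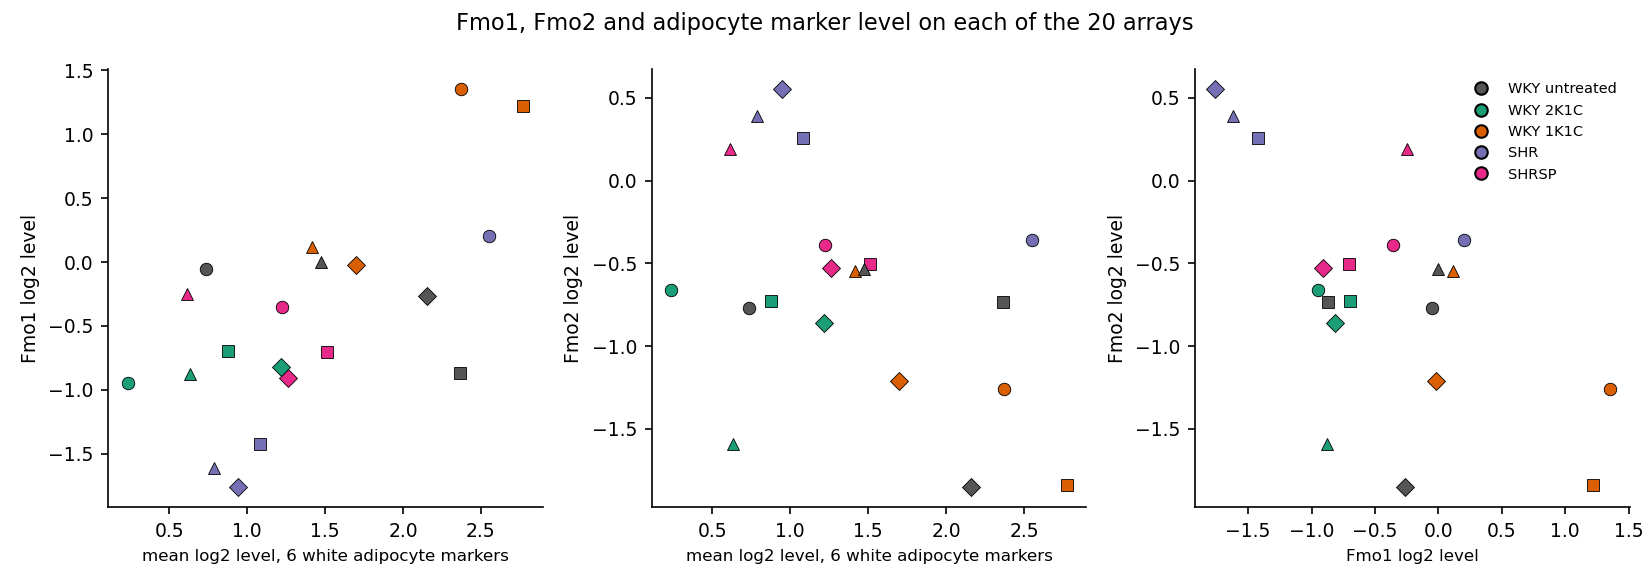
Each point is 1 of the 20 arrays, coloured by group, with symbols for replicates 1 (circle), 2 (square), 3 (diamond) and 4 (triangle). The left and middle panels plot Fmo1 and Fmo2 log2 levels against the mean log2 level of 6 white adipocyte markers (r = 0.634 and -0.467), and the right panel plots Fmo2 against Fmo1 (r = -0.604). SHR replicate 1 lies apart from SHR replicates 2 to 4 in all panels.

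Sequence before the Fmo1 and Fmo2 transcription starts is shown because these members moved in opposite directions. The windows are from RefSeq on GRCr8, minus strand, 5′ to 3′, and capitals mark AGAACA or its reverse TGTTCT, the half-site letters of the glucocorticoid receptor. The Fmo1 stretch is chr13:77747667-77747916, the 250 bases before the start, and the Fmo2 stretch is chr13:77777598-77777784, the 187 bases of its window outside the annotated gene.
Fmo1 upstream: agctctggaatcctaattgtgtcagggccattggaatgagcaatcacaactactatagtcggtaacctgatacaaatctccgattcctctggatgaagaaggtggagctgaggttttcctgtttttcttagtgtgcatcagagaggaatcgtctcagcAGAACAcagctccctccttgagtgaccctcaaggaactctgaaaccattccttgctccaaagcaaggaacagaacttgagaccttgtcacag
Fmo2 upstream: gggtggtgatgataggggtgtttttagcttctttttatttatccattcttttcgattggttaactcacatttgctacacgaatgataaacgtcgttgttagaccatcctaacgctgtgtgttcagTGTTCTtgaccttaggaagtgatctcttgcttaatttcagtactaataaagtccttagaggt
Counting both strands, the Fmo1 and Fmo2 windows each held 1 match, beginning 92 bases before the Fmo1 start and 125 bases before the Fmo2 start. That Fmo2 start lies inside the annotated gene, and the match begins at base 126 of the printed stretch. The Fmo5 window, chr2:187910714-187910963, lies inside the annotated gene, chr2:187885741-187938468, and held none. Of 33469 RefSeq windows of 250 bases, 17.5% held the letters. The Ah receptor core GCGTG or its reverse CACGC was in 25.9% of windows, in that of Fmo5 and in neither that of Fmo1 nor that of Fmo2. A match is a description of letters only, and the search was chosen with the values in view.

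Companion genes were chosen as 6 lists of 45 genes in all, of which 43 were on the array and 41 were tested. Any tie of these genes to FMO activity was not tested. Between SHR and untreated WKY 1 was called higher and 1 lower, between SHRSP and untreated WKY likewise, and between SHRSP and SHR 1 was called lower. The shares of all genes called in these comparisons were 1.84%, 2.39% and 0.359%. In the 3 comparisons among WKY groups none of the 41 was called, against 0.0122% or 0% of all genes. Over all genes, 51.8% were higher in 1K1C than in 2K1C, with a median difference of 0.015, and 52.6% in SHR than in untreated WKY, with a median of 0.018.

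The 3 tested genes of NADPH supply described here were all higher in 1K1C than in 2K1C, by a median of 1.01, and none was called. Me1, which makes NADPH from malate, read 7.55, 7.03, 6.13 and 5.38 in 1K1C and 4.18, 4.34, 5.18 and 5.01 in 2K1C, a difference of 1.84 ± 0.52 (SE) with an adjusted p of 0.0744 (limma). Idh1, the cytosolic isocitrate dehydrogenase, differed by 1.01 ± 0.24. H6pd, which makes NADPH inside the endoplasmic reticulum, differed by 0.086 ± 0.18. Me1 and Idh1 did not overlap between the groups, in a comparison where 9.75% of all genes had groups apart. Me1 was highest on WKY 1K1C replicates 1 and 2, the arrays highest in Fmo1, and in SHR on replicate 1. These arrays also had the highest white adipocyte means of their groups, 2.37 and 2.77 in 1K1C and 2.55 in SHR. The part of fat in the Me1 differences was not tested.

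Of the 4 genes of FAD supply, Slc52a3, a riboflavin transporter, was called higher in SHRSP than in untreated WKY, by 1.30 ± 0.33 with an adjusted p of 0.0486. Its call was lost without any single array of the 2 groups except WKY untreated replicate 4, with adjusted p-values up to 0.175 (limma). It was also lost with no filter on dim probes, unscaled values, normexp, the replicate block or the compared groups alone, with adjusted p-values of 0.0513 to 0.176. Slc52a2, a second riboflavin transporter, was at -0.52 ± 0.20 in the same comparison. Flad1, which makes FAD, was at -0.17 ± 0.18, and riboflavin kinase Rfk at -0.053 ± 0.16. Slc52a3 was also above untreated WKY in SHR (1.16 ± 0.33), 2K1C (0.90 ± 0.33) and 1K1C (0.45 ± 0.33), without a call. Between SHRSP and SHR it differed by 0.14 ± 0.33.

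In taurine and cysteamine metabolism (6 of 6 tested) none was called. Cdo1, which oxidises cysteine, was 1.22 ± 0.35 higher in 1K1C than in 2K1C, Csad, which makes hypotaurine, 1.08 ± 0.53, and the pantetheinase Vnn1, which releases cysteamine, 0.87 ± 0.28. Gadl1 was 0.54 ± 0.22 higher in 2K1C than in untreated WKY. Over the whole list the median difference between 1K1C and 2K1C was 0.44, with 3 genes higher and 3 lower.

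Among 17 tested genes of the other oxidising enzymes, 14 were lower in SHR than in untreated WKY, the median over the list was -0.22, and 1 was called. The pattern was not particular to SHR. Against untreated WKY, 14 were also lower in SHRSP (median -0.33) and 14 in 2K1C (median -0.61), and 9 in 1K1C (median -0.045). Cbr1, a carbonyl reductase, read 2.72, 3.81, 3.64 and 3.19 in untreated WKY, 1.48, 1.67, 1.59 and 1.93 in SHR and 1.72, 1.70, 1.67 and 1.58 in SHRSP. All 8 arrays of the hypertensive strains were below all untreated WKY arrays. It fell by 1.67 ± 0.29 in SHR (adjusted p = 0.00384) and by 1.67 ± 0.29 in SHRSP (adjusted p = 0.0033, limma for both). Cyp1b1, a cytochrome P450, was at -2.06 ± 0.60 and Cyp2e1, another, at -1.95 ± 0.72 in SHR, neither called. Cyp1b1 was also below untreated WKY in SHRSP (-1.41), 1K1C (-1.58) and 2K1C (-0.91). For Cyp2e1, WKY untreated replicate 1 read -1.10 and the other arrays of that group -4.44, -4.20 and -5.50. The monoamine oxidase Maob was at -1.73 ± 0.41 in 2K1C against untreated WKY, with an adjusted p of 0.0903 (limma). Maob was also below untreated WKY in SHR (-1.52), SHRSP (-1.15) and 1K1C (-1.23). These comparisons share the untreated WKY arrays, which read -2.08, -0.37, 0.36 and -2.01 for Maob and -4.50, -1.74, -1.17 and -3.58 for Cyp1b1. Replicates 2 and 3 were the highest of that group for both genes.

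In the Ah receptor pathway (6 of 8 tested) no gene was called. Beside Cyp1b1, a target of the receptor, the receptor gene Ahr was at 0.87 ± 0.35 and the target Nqo1 at -0.60 ± 0.21 in 2K1C against untreated WKY, and the repressor Ahrr was at 0.60 ± 0.40 in SHR. Nqo1 was also below untreated WKY in SHRSP (-0.60) and SHR (-0.46), and at -0.074 in 1K1C.

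Of 6 glucocorticoid targets, 5 were higher in SHR than in untreated WKY, the median over the list was 0.65, and 1 was called. Against untreated WKY, 4 were also higher in 2K1C (median 0.46), 3 in SHRSP (median 0.099) and 3 in 1K1C (median 0.040). Errfi1, a feedback inhibitor of the EGF receptor, read 1.35, 0.89, 0.32 and 1.62 in untreated WKY and 2.04, 3.43, 3.79 and 3.48 in SHR, without overlap. It rose by 2.14 ± 0.42 with an adjusted p of 0.0139, which became 0.051 to 0.0599 without SHR replicate 2, 3 or 4 or WKY untreated replicate 3, and 0.0923 with the compared groups alone (limma). Errfi1 was also above untreated WKY in SHRSP (1.29 ± 0.42) and 2K1C (0.76 ± 0.42), without a call. Sgk1, a kinase of ion transport, was at 0.90 ± 0.26 in SHR and at 0.87 ± 0.26 in 2K1C against untreated WKY. The clock gene Per1 was at 1.16 ± 0.63 in 2K1C against untreated WKY. Tsc22d3, a glucocorticoid-induced leucine zipper protein, fell by 0.90 ± 0.18 in SHRSP against SHR, with an adjusted p of 0.0249 over the 20 arrays and 0.261 with the arrays of the shared slide alone. Leaving out SHR replicate 3 or 4, or SHRSP replicate 1, 2 or 3, also ended the call, with an adjusted p of 0.0669 to 0.126, and unscaled values gave 0.431.

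**Figure D4:**
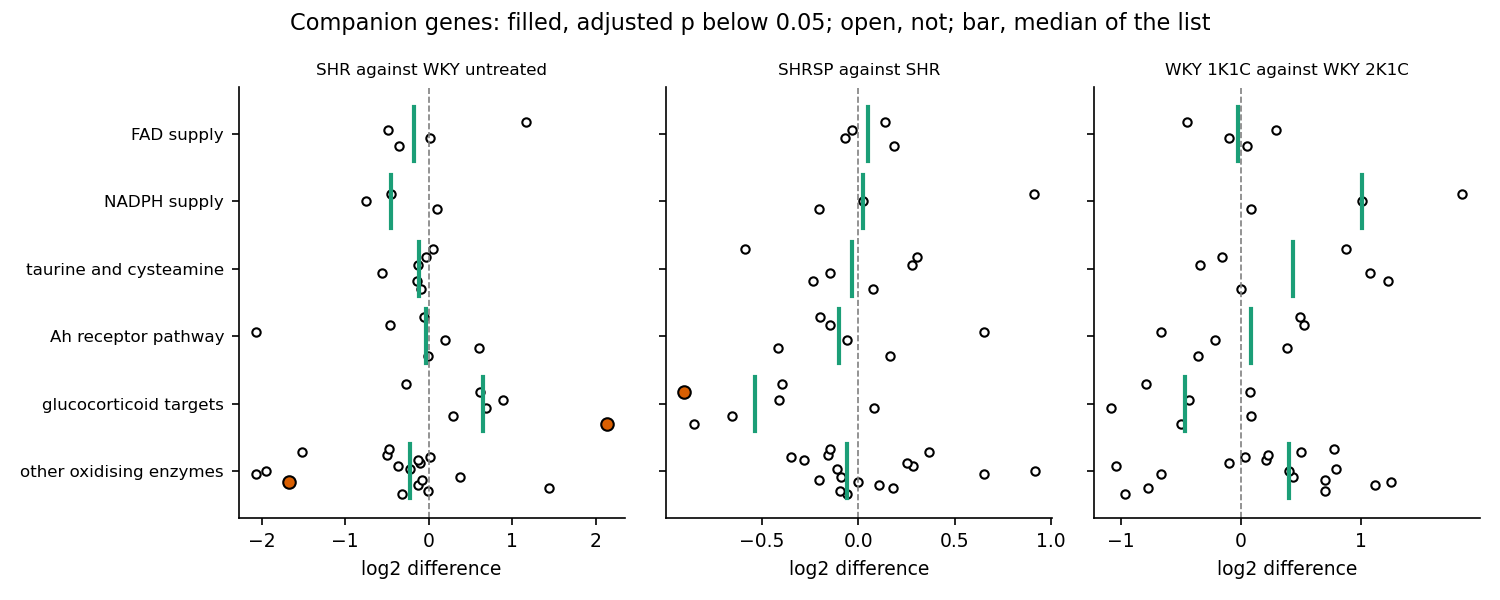
Log2 differences of the tested companion genes in 3 comparisons, 1 row per list, each panel with its own x axis. Each point is a gene, filled where its adjusted p was below 0.05 and open otherwise, and the green bar is the median of the list. The NADPH supply list has its median at 1.01 in 1K1C against 2K1C, and the called genes are Errfi1 and Cbr1 in SHR against untreated WKY and Tsc22d3 in SHRSP against SHR.

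The tested genes whose levels followed each member most closely over the 20 arrays were found by Pearson's r among 16419 genes, as a description of arrays that share groups and slides. For Fmo1 they were Gcgr (the glucagon receptor, r = 0.912), Cad (pyrimidine synthesis, 0.897), a transcript listed as ENSRNOT00000071110 (0.895), Yars1 (tyrosyl-tRNA synthetase, 0.894) and Spink5 (a protease inhibitor, 0.885). For Fmo2 they included Omd (osteomodulin, a matrix proteoglycan, r = 0.9), LOC690323 (0.879), Errfi1 (0.873) and ENSRNOT00000035001 (0.867). For Fmo4 the values were lower, with Nmrk1 (nicotinamide riboside kinase) at 0.745, Casp9 at 0.743, Sfrp4 at 0.72, Cndp1 at 0.717 and Rmnd1 at 0.701. With group means removed, r was 0.703 to 0.854 for the Fmo1 genes, 0.709 to 0.818 for those of Fmo2 and 0.633 to 0.697 for those of Fmo4.

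None of the tested neighbours was called in any of the 6 comparisons. Up to 3 genes on either side in the RefSeq order, these were Mettl13, Vamp4 and Myoc beside Fmo4, Fmo1 and Fmo2, and Or13l2, Prkab2, Pde4dip and Sec22b beside Fmo5. Myoc, which codes for the secreted glycoprotein myocilin, was at 1.41 ± 0.79 (SE) in SHR against untreated WKY, with an adjusted p of 0.448 (limma). Vamp4 was at -0.14 and Mettl13 at -0.29 in the same comparison.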

How the data were processed

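Per the file headers and the submitters' processing notes, the deposited spot intensity is the background-subtracted processed signal of Agilent Feature Extraction 10.7.3.1, linear and unscaled, on an array of 62976 spots. The deposited value table holds the same intensity; its columns differ from the scanner files in 0 spots. Controls and spots marked as outliers were left out. The log2 of the authors' intensity was taken, and the log2 of the array's 75th percentile was subtracted from it. Spots of a probe were averaged, and genes were represented by their brightest kept probe. Probes were kept if well above background on all 4 arrays of a group (18899 of 30367 probes). limma 3.58.1 (lmFit, eBayes) was fitted over 20 arrays and 16424 genes with Benjamini-Hochberg adjustment at 0.05; intervals are unadjusted. The script was tested on simulated data. The labels call the replicates biological; the number of arrays limits precision. The members, lists and tests were chosen with earlier results of these data known. A listed gene is not reported here. Named companion genes were up to 4 per list, called genes first, then those of largest difference. Other scalings, filters, probe rules, weights, blocks and left-out arrays were tried. Of the probes, 60.4% were matched to current RefSeq names.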

Additional observations from a re-analysis of the deposited data

Results flagged for a closer look

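In the group-by-group check for a sample far from the others, 135 groups of 4 arrays were examined over the FMO probes and the named companion genes, and 4 stood out, where chance marks about 1 in 20. Fmo2 probe A_64_P091088 was lowest on WKY untreated replicate 3, at -2.69. Fmo5 was lowest on WKY untreated replicate 1, at -7.12, a value not well above background. H6pd was lowest on WKY untreated replicate 1 at -2.33, and Nqo1 lowest on WKY 2K1C replicate 4 at -3.57.

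For Fmo1, each 2K1C array lay below and each 1K1C array above the untreated WKY mean. The 2K1C mean was -0.54 and the 1K1C mean 0.96 from untreated WKY; the direct test between the operated groups gave an adjusted p of 0.0731 (limma).

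Fmo5 read -5.48 on SHR replicate 1, above all untreated WKY arrays, outside the tested genes.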

How the results depend on the processing

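No FMO gene was called in any comparison in the fit reported. With array weights, 2 (Fmo1 and Fmo2) were called between SHR and untreated WKY, the same 2 between SHRSP and SHR and 1 (Fmo2) between SHRSP and untreated WKY, where 46.6%, 5.36% and 33.7% of all genes were called. Scaling to the array median called 1 (Fmo2) between SHR and untreated WKY. Leaving out 1 array called 0 to 2 between SHR and untreated WKY and 0 to 1 between 1K1C and 2K1C, in fits that called 3.34% of all genes (without SHR replicate 1), 4.07% (without WKY untreated replicate 4) and 11.5% (without 1K1C replicate 4). All other settings called 0. Signs turned with array weights for Fmo1 (0.061) and Fmo4 (0.0028) in SHRSP against untreated WKY and for Fmo4 in SHR against untreated WKY (0.047, and 0.012 with quantile normalization). With the deposited values unscaled they turned for Fmo2 in 2K1C against untreated WKY (-0.21, and -0.0074 with normexp and quantile), Fmo4 in SHRSP against SHR (0.12) and Fmo4 in 1K1C against untreated WKY (-0.062). Leaving out 1 array moved these differences over -0.28 to 0.23 for Fmo2 in 2K1C, -0.22 to 0.049 for Fmo4 in SHRSP against SHR and -0.052 to 0.19 for Fmo4 in 1K1C. The cause was not tested. With the replicate number as a block, Fmo2 in SHR against untreated WKY had an adjusted p of 0.083 and Fmo1 in 1K1C against 2K1C one of 0.0534; no FMO call changed, and Slc52a3 (0.0695) and Tsc22d3 (0.0672) lost theirs. Correlations of same-numbered arrays ran from -0.372 to 0.566, so the numbers were not taken to pair samples. Counts of genes called over all genes varied by setting, left-out arrays aside, from 102 to 7659 between SHR and untreated WKY (303 in the fit reported), from 161 to 5540 for SHRSP (393), from 0 to 4805 for 2K1C (2), from 0 to 586 for 1K1C (0) and from 29 to 880 between SHRSP and SHR (59). The number of arrays, 4 a group, limits the precision, and the Fmo5 signal was too close to background to test.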
